A study of Mus musculus with 24 samples.

Results

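The genes described here are 8 CC chemokines, Ccl2, Ccl7, Ccl8, Ccl11, Ccl9, Ccl3, Ccl4 and Ccl5, named by symbol as members of 1 ligand family. All 8 had reads and all 8 were among the 15221 genes tested, of 45706 gene entries in the count files. Their RNA was measured in fibroblasts (MEFs) of male C57BL/6 mouse embryos of day 13.5, freed of head and inner organs, after 7 days in culture. The 8 groups hold 3 libraries each. Cells homozygous for GR Zn/Zn, a form of the glucocorticoid receptor (GR, gene Nr3c1) with a changed zinc finger in the domain that binds DNA, received dexamethasone with lipopolysaccharide, lipopolysaccharide, dexamethasone or vehicle, and cells with the wild-type receptor (GR wt/wt) received the same 4 treatments. Dexamethasone (Dex, a synthetic glucocorticoid that activates GR) was given at 1 uM in ethanol over 16 h. Lipopolysaccharide (LPS, a bacterial cell wall component) was present during 6 h at 100 ng/ul, as the labels give it, in cells that also had Dex or ethanol over 16 h. Vehicle was ethanol alone over 16 h. The mutation is present in every cell of the embryo, and no cell type was sorted. The labels do not state that the 3 libraries of a group are separate embryos or cultures. The p-values therefore reflect the spread among libraries, and this may be technical. Effects of genotype and of the particular embryos or cultures cannot be told apart.

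CC chemokines are small secreted proteins with a pair of adjacent cysteines near the amino end, and they bind G protein-coupled receptors on leukocytes and draw these cells into tissue. Tissue cells such as fibroblasts secrete them when Toll-like receptor 4 senses LPS and switches on NF-kB, AP-1 and interferon regulatory factors. Glucocorticoids are known to lower many of these transcripts, and the study asked whether that action needs the receptor to contact DNA directly.

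All 8 genes lie on mouse chromosome 11 in the GRCm38 annotation (GENCODE vM21), in a pair of clusters. The first cluster ran in the order Ccl2 (ENSMUSG00000035385, 82035571 to 82037453), Ccl7 (ENSMUSG00000035373, 82045712 to 82047525), Ccl11 (ENSMUSG00000020676, 82057823 to 82062955) and Ccl8 (ENSMUSG00000009185, 82115185 to 82116799), all on the plus strand. The second held Ccl5 (ENSMUSG00000035042, 83525778 to 83530518), Ccl9 (ENSMUSG00000019122, 83572919 to 83578636) and Ccl3 (ENSMUSG00000000982, 83647844 to 83649355) on the minus strand and Ccl4 (ENSMUSG00000018930, 83662584 to 83664683) on the plus strand. The clusters were 1409.0 kb apart, with 26 coding genes between them. Ccl2 and Ccl7 were 8.3 kb apart and Ccl3 and Ccl4 13.2 kb. Each gene had 3 exons in its longest model except Ccl9, with 4. Ccl2 overlapped 1 gene on the other strand, which strand-specific counting separates. No stretch of 50 bases in the exons of 7 of the 8 genes was shared with another gene, and 1.97% were in Ccl9.

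The promoter tables used here (RefSeq, GRCm38.p6, 250 bases before to 50 after the gene's start) held Ccl8, Ccl9 and Ccl3 of the 8 genes. These 3 are shown for that reason, to give the letters before the starts of members that rose with LPS. Capitals mark matches to 4 motifs searched on both strands: an NF-kB site (kappaB consensus), the interferon-stimulated response core (GAAA, any 2 bases, GAAA), the AP-1 site TGANTCA and the TATA box TATAAA. Ccl8 is at chr11:82114935-82115234 (plus strand), Ccl9 at chr11:83578587-83578886 (minus strand) and Ccl3 at chr11:83649329-83649628 (minus strand), each written 5′ to 3′ along the gene.
Ccl8: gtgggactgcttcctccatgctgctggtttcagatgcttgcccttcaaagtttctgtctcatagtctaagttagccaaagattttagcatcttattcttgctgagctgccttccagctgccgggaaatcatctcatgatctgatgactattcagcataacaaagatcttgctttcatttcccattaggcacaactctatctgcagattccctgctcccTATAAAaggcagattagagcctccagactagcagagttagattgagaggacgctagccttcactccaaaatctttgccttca
Ccl9: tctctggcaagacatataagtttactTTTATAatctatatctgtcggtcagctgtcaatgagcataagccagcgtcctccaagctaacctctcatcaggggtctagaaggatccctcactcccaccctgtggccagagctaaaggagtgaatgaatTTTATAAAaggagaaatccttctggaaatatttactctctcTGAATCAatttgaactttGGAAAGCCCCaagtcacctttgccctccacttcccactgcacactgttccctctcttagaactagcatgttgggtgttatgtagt
Ccl3: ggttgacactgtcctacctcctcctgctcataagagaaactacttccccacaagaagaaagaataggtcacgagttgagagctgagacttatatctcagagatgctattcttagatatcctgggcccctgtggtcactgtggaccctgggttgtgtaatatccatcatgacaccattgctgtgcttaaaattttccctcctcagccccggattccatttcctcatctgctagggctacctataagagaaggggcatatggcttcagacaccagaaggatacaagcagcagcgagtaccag
Ccl8 had a TATA box that began 32 bases before its start. Ccl9 had an NF-kB match 35 bases and an AP-1 match 53 bases before its start, with TATA matches that began 92 and 94 bases before it, overlapping each other, and another at 224 bases. Ccl3 had no match to any of these letters. None of the 3 held the interferon-stimulated core or AGAACA, which was also searched. AGAACA is a 6-base part of the glucocorticoid response element. Of 32851 promoters of this length, 4.51% held the NF-kB match, 3.44% the interferon-stimulated core, 7.81% the AP-1 site, 13.6% the TATA box and 19.0% AGAACA. A match is a description of letters and not a bound site.

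The libraries held 18.9 to 25.5 M counted reads in 21 cases and 43.9 to 58.0 M in 3 with later library numbers in their labels: replicate 1 of mutant with vehicle, replicate 2 of mutant with LPS and replicate 3 of wild type with Dex and LPS. Mutant with Dex and LPS replicate 2 and wild type with Dex and LPS replicate 1 also stood apart from their groups, so each result was recomputed without these 5. Levels are given in counts per 1e06 reads (CPM), scaled by TMM, and a count of 0 allows up to 3 reads, or 0.0529 to 0.163 CPM in a library. Fkbp5, a direct GR target, checked the labels: it stood at 44.0 ± 2.38 CPM with Dex and 44.8 ± 0.807 CPM with vehicle in mutant cells, against 307 ± 13.2 CPM with Dex and 41.3 ± 1.40 CPM with vehicle in wild-type cells (SD, n = 3 each). Nr3c1 RNA was at 86.4 ± 1.11 CPM in mutant and 89.7 ± 2.94 CPM in wild-type cells with vehicle, the only treatment for which it is given here. A change within the protein does not show in a count per gene. Fibroblast markers (10 genes) were abundant in every library, with summed levels of 25719 to 34974 CPM, though single markers differed between groups, as given with the genotype differences.

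LPS raised all 8 chemokines in both genotypes. In edgeR's quasi-likelihood fit over all 24 libraries, 8 of 8 were higher with LPS than with vehicle in mutant cells and 8 of 8 in wild-type cells, each with an adjusted p (Benjamini-Hochberg) below 0.05. Of all tested genes, 19.0% were called higher in mutant cells and 14.0% in wild-type cells. The filter on low counts keeps a gene with enough reads in a single group. Ccl8 and Ccl5 had few reads without LPS and passed through groups with LPS. Their place in the count of 8 was therefore in part set in advance. The median log2 fold change of the 8 was 4.56 in mutant and 4.59 in wild-type cells, against 0.00 and -0.01 over all tested genes. Every library with LPS was above every library with vehicle for all 8 genes in both genotypes, as was so for 24.4% of all tested genes in mutant and 26.5% in wild-type cells.

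**Figure D1:**
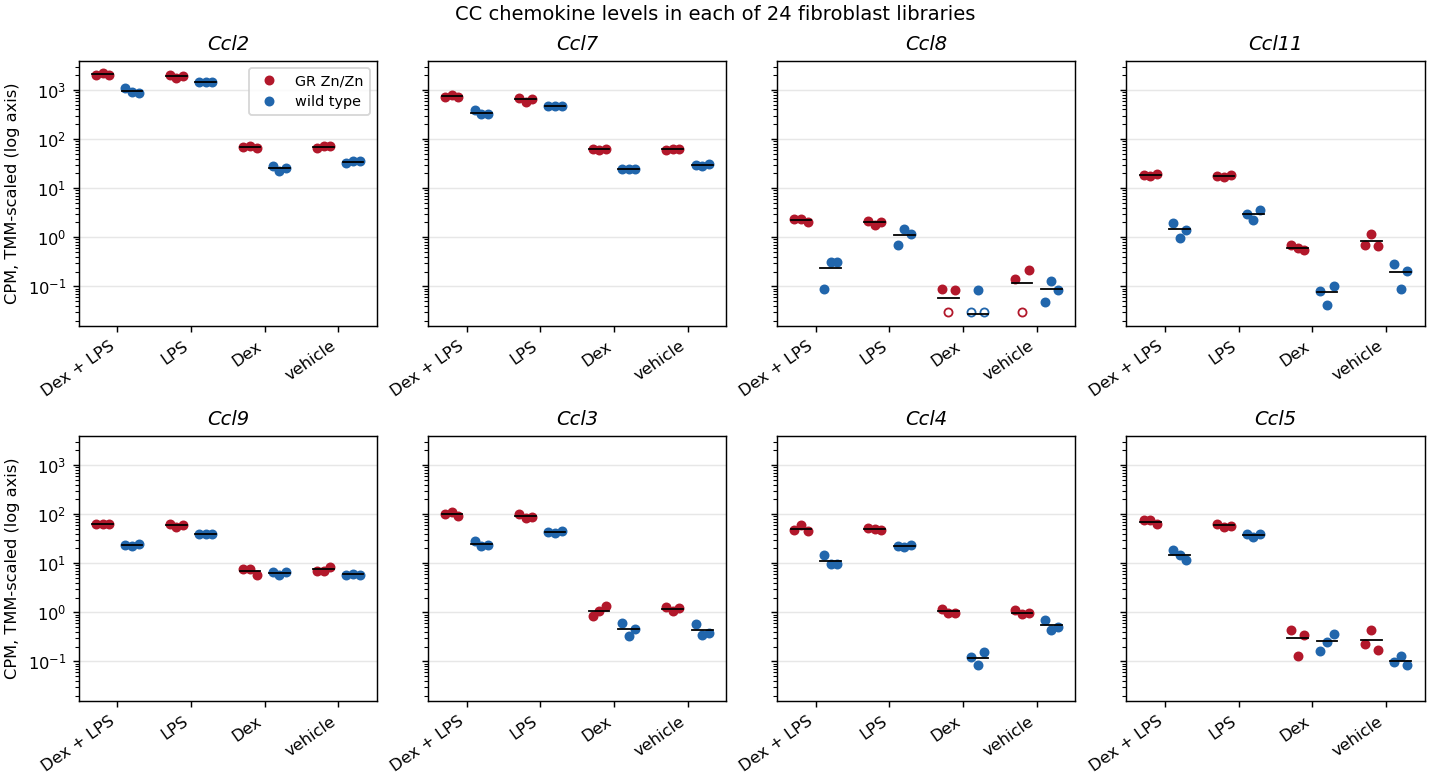
Levels of the 8 CC chemokines in each of the 24 libraries, in TMM-scaled CPM on a log axis, for GR Zn/Zn (red) and wild-type (blue) cells under 4 treatments; each point is 1 library, black lines are group means, and open points at 0.03 CPM mark libraries with 0 reads. In all 8 panels the LPS libraries lie above the vehicle libraries, and the blue points with Dex and LPS lie below the blue points with LPS while the red ones do not.

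Ccl2 draws monocytes through the receptor Ccr2. It measured 2039, 1788 and 1954 CPM with LPS and 65.9, 73.6 and 71.1 CPM with vehicle in mutant cells, a log2 fold change of 4.78 ± 0.09 (SE, edgeR adjusted p = 9.58e-21). In wild-type cells it measured 1463, 1452 and 1468 CPM with LPS and 33.0, 35.2 and 35.8 CPM with vehicle, a log2 fold change of 5.39 ± 0.10 (edgeR adjusted p = 3.98e-21). The mutant level was the higher one in both conditions, and the fold was larger in wild type.

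Ccl7, a monocyte attractant that shares Ccr2 with Ccl2, followed the same order. It had 681, 579 and 664 CPM with LPS and 59.1, 61.4 and 63.4 CPM with vehicle in mutant cells, a log2 fold change of 3.39 ± 0.08. In wild-type cells it had 466, 476 and 479 CPM with LPS and 29.6, 27.9 and 31.0 CPM with vehicle, a log2 fold change of 4.0 ± 0.09. The fold of both genes therefore differed between genotypes: the mutant's LPS effect minus the wild type's was -0.61 ± 0.11 for Ccl2 (edgeR adjusted p = 0.0113) and -0.61 ± 0.11 for Ccl7 (edgeR adjusted p = 0.00932). These were 2 of the 8 genes, where 0.539% of all tested genes were called in either direction. The number of members called was 2 as well when any single library of these groups was left out, while the share of all genes was 0.221 to 0.512% without single libraries and 2.57% without the 5 that stood apart. It was 0.221 to 0.343% without replicate 1, 2 or 3 of wild type with vehicle, replicate 1 or 2 of wild type with LPS, replicate 1 of mutant with vehicle, or replicate 1 or 2 of mutant with LPS. For the other 6 genes the difference was not called, with log2 values of -0.32 to 0.89.

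Ccl5, which attracts T cells, monocytes and eosinophils, had the largest rise of the 8 in both genotypes. It measured 63.3, 54.5 and 58.2 CPM with LPS and 0.229, 0.428 and 0.169 CPM with vehicle in mutant cells, a log2 fold change of 7.45 ± 0.22. In wild-type cells it measured 38.5, 34.1 and 39.1 CPM with LPS and 0.0949, 0.131 and 0.0827 CPM with vehicle, a log2 fold change of 7.69 ± 0.28. The vehicle values rest on 26 reads in 3 mutant and 7 reads in 3 wild-type libraries, so the size of this fold is less certain than the fact of the rise.

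Ccl3 and Ccl4 are inflammatory chemokines that attract monocytes and T cells, and Ccl3 binds Ccr1. Ccl3 was at 100.2, 82.2 and 88.3 CPM with LPS and 1.31, 1.05 and 1.22 CPM with vehicle in mutant cells, against 44.0, 42.1 and 44.4 CPM with LPS and 0.569, 0.349 and 0.372 CPM with vehicle in wild-type cells. Ccl4 was at 52.4, 50.2 and 47.3 CPM with LPS and 1.09, 0.903 and 0.970 CPM with vehicle in mutant cells, against 22.9, 21.8 and 23.0 CPM with LPS and 0.712, 0.436 and 0.496 CPM with vehicle in wild-type cells. The log2 fold changes with LPS were 6.12 ± 0.14 in mutant and 6.44 ± 0.17 in wild-type cells for Ccl3, and 5.51 ± 0.16 in mutant and 5.19 ± 0.19 in wild-type cells for Ccl4.

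Ccl9, a mouse chemokine that binds Ccr1, had the smallest fitted rise in both genotypes. It had 63.5, 55.5 and 60.2 CPM with LPS and 7.06, 6.89 and 8.44 CPM with vehicle in mutant cells (log2 2.99 ± 0.09), and 39.7, 39.1 and 39.6 CPM with LPS and 5.74, 6.15 and 5.87 CPM with vehicle in wild-type cells (log2 2.72 ± 0.09).

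Per kilobase, Ccl11 and Ccl8 were the least abundant members with LPS. Ccl11, or eotaxin, attracts eosinophils through Ccr3. It was at 17.7, 17.1 and 18.8 CPM with LPS and 0.706, 1.14 and 0.675 CPM with vehicle in mutant cells (log2 4.35 ± 0.19), and at 2.97, 2.22 and 3.53 CPM with LPS and 0.285, 0.0873 and 0.207 CPM with vehicle in wild-type cells (log2 3.46 ± 0.31). Ccl8, which in mice binds Ccr8, had 2.15, 1.80 and 2.07 CPM with LPS in mutant and 0.685, 1.45 and 1.14 CPM with LPS in wild-type cells. With vehicle it had 13 reads over 3 mutant libraries and 6 reads over 3 wild-type libraries, most of them at or under the floor of 3 reads. Its fitted log2 fold changes with LPS, 3.35 ± 0.48 in mutant and 2.82 ± 0.59 in wild-type cells, depend on the prior count.

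Set per kilobase of exon, so that genes of different length can be compared, Ccl7 and Ccl2 led in vehicle and Ccl2 and Ccl7 led with LPS, in both genotypes. With vehicle, Ccl7 was at 76.5 ± 2.66 CPM per kb in mutant and 36.8 ± 1.94 in wild-type cells, and Ccl2 at 61.7 ± 3.45 in mutant and 30.5 ± 1.27 in wild-type cells (SD, n = 3). Ccl9 came next, at 2.45 ± 0.278 in mutant and 1.94 ± 0.0692 CPM per kb in wild-type cells. With LPS the levels per kb ran Ccl2, Ccl7, Ccl3, Ccl4, Ccl5, Ccl9, Ccl11 and Ccl8 in mutant cells, with no overlap between neighbours. In wild-type cells the order with LPS was Ccl2, Ccl7, Ccl3, Ccl5, Ccl4, Ccl9, Ccl11 and Ccl8, where only Ccl11 and Ccl8 overlapped. Ccl3 moved above Ccl9 with LPS, at 118 ± 11.9 against 19.6 ± 1.31 CPM per kb in mutant cells and 56.8 ± 1.64 against 13 ± 0.112 CPM per kb in wild-type cells. With vehicle, Ccl3 and Ccl4 overlapped in mutant and in wild-type cells, as did Ccl5 and Ccl8 in mutant cells and Ccl11, Ccl8 and Ccl5 in wild-type cells.

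As reads, the 8 genes together took 2847 ± 200 CPM with LPS and 142 ± 5.92 CPM with vehicle in mutant cells, and 2081 ± 14.5 CPM with LPS and 71.5 ± 2.15 CPM with vehicle in wild-type cells. Ccl2 made up 67.7 ± 0.290% of that sum with LPS and 49.3 ± 1.14% with vehicle in mutant cells, and 70.2 ± 0.220% with LPS and 48.5 ± 1.41% with vehicle in wild-type cells. Ccl7's share was 22.5 ± 0.471% with LPS and 43.1 ± 0.729% with vehicle in mutant cells, and 22.7 ± 0.306% with LPS and 41.3 ± 1.40% with vehicle in wild-type cells. The makeup of the sum thus shifted towards Ccl2 in both genotypes.

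When Dex was given with LPS, none of the 8 chemokines was called in mutant cells and all 8 fell in wild-type cells. In the mutant, edgeR called 0 of 8 with Dex and LPS against LPS alone, where 0.00657% of all tested genes, a single gene, were called in either direction (889 genes and 2 of the 8, Ccl7 and Ccl5, had an unadjusted p below 0.05). DESeq2 called 31 genes in this mutant comparison and 0 of the 8. The edgeR share was 0.175% without replicate 2 of mutant with Dex and LPS, 0% without any other single library of these groups and 1.02% without the 5 that stood apart, and none of the 8 was called in any of these. In wild type, 8 of 8 were lower, where 10.6% of all tested genes were called lower, with a median log2 fold change of -0.89 over the 8 and 0.01 over all tested genes. The comparisons of LPS with vehicle and of Dex and LPS with LPS share the LPS libraries.

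Ccl5 fell most among the well-counted members. It had 74.3, 74.8 and 61.4 CPM with Dex and LPS and 63.3, 54.5 and 58.2 CPM with LPS in mutant cells, a log2 fold change of 0.26 ± 0.12 (edgeR adjusted p = 0.852). In wild-type cells it had 18.3, 14.9 and 11.5 CPM with Dex and LPS and 38.5, 34.1 and 39.1 CPM with LPS, a log2 fold change of -1.34 ± 0.13 (edgeR adjusted p = 6.75e-08). The wild-type groups were well apart and the mutant groups overlapped.

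Ccl4 and Ccl3 fell in wild type and were not called in the mutant. Ccl4 was at 47.1, 59.2 and 45.9 CPM with Dex and LPS in mutant cells, overlapping its LPS libraries, and at 14.4, 9.58 and 9.81 CPM with Dex and LPS in wild-type cells, all below its LPS libraries, with log2 fold changes of 0.02 ± 0.11 in mutant (edgeR adjusted p = 0.997) and -1.01 ± 0.12 in wild type (edgeR adjusted p = 8.99e-07). Ccl3 was at 98.9, 110.1 and 91.0 CPM with Dex and LPS in mutant cells and at 28.4, 22.7 and 23.1 CPM in wild-type cells, with log2 fold changes of 0.15 ± 0.09 in mutant (edgeR adjusted p = 0.911) and -0.82 ± 0.10 in wild type (edgeR adjusted p = 1.21e-06). Again the groups overlapped in the mutant only, and 16.8% of all tested genes had wild-type groups apart in that direction.

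Ccl9 had 63.5, 62.7 and 62.0 CPM with Dex and LPS in mutant cells and 23.4, 22.7 and 24.6 CPM in wild-type cells. Its log2 fold change against LPS alone was 0.07 ± 0.08 in mutant (edgeR adjusted p = 0.959) and -0.74 ± 0.08 in wild-type cells (edgeR adjusted p = 2.07e-07). Its wild-type libraries with Dex and LPS were the closest to each other of the 8 genes, at 57.5 to 62.4% of the mean with LPS alone.

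The abundant monocyte attractants Ccl2 and Ccl7 fell least. Ccl2 had 2051, 2201 and 2045 CPM with Dex and LPS in mutant cells and 1072, 890 and 848 CPM in wild-type cells, with log2 fold changes of 0.12 ± 0.08 in mutant (edgeR adjusted p = 0.919) and -0.64 ± 0.08 in wild type (edgeR adjusted p = 1.60e-06). Ccl7 had 709, 798 and 713 CPM with Dex and LPS in mutant cells and 399, 320 and 317 CPM in wild-type cells, with log2 fold changes of 0.21 ± 0.07 in mutant (edgeR adjusted p = 0.633) and -0.46 ± 0.07 in wild type (edgeR adjusted p = 6.38e-05). In the mutant, every library with Dex and LPS was above every library with LPS for both genes, though neither was called, and 5.14% of all tested genes had mutant groups apart in that direction.

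Ccl11 and Ccl8 fell in wild type, at low levels, and were not called in the mutant. Ccl11 had 18.5, 17.8 and 19.6 CPM with Dex and LPS in mutant cells and 1.91, 0.985 and 1.43 CPM in wild-type cells, with log2 fold changes of 0.06 ± 0.14 in mutant (edgeR adjusted p = 0.979) and -0.96 ± 0.20 in wild type (edgeR adjusted p = 6.76e-04). With only the groups compared in the fit, the wild-type value for Ccl11 was -0.95 with an edgeR adjusted p of 0.0573. Ccl8 had 2.36, 2.31 and 2.07 CPM with Dex and LPS in mutant cells and 0.0889, 0.313 and 0.319 CPM in wild-type cells, from 2, 7 and 18 reads, with log2 fold changes of 0.16 ± 0.35 in mutant (edgeR adjusted p = 0.977) and -1.81 ± 0.45 in wild type (edgeR adjusted p = 0.00159).

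**Figure D2:**
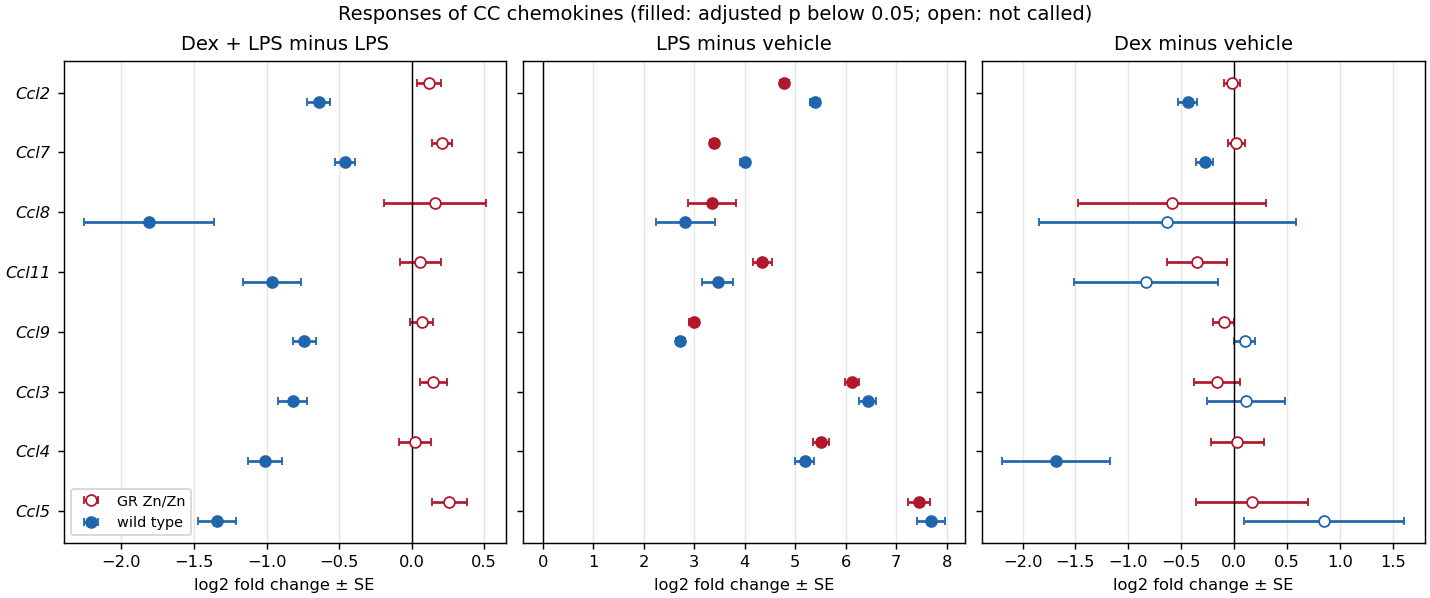
Log2 fold changes (points) with standard errors (bars) of the 8 CC chemokines for Dex and LPS minus LPS, LPS minus vehicle, and Dex minus vehicle, in GR Zn/Zn (red) and wild-type (blue) cells, n = 3 libraries a group; filled points passed an adjusted p of 0.05. In the left panel all 8 red points are open, and all 8 blue points are filled and left of 0, from -1.81 for Ccl8 to -0.46 for Ccl7.

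Expressed as a share of the mean level with LPS alone, cells given Dex as well kept between 102% for Ccl4 and 120% for Ccl5 in the mutant. Wild-type cells kept 22 ± 12.0% for Ccl8, 40.0 ± 9.10% for Ccl5, 49.7 ± 15.9% for Ccl11, 49.9 ± 12.1% for Ccl4, 56.9 ± 7.31% for Ccl3, 59.8 ± 2.46% for Ccl9, 64.1 ± 8.16% for Ccl2 and 72.9 ± 9.77% for Ccl7 (SD over 3 libraries). Most neighbours in this order are closer together than these SDs. The wild-type mean with Dex and LPS stayed above the vehicle mean for all 8 genes, a difference that was not tested. The 8 together were at 3144 ± 158 CPM in mutant and 1358 ± 174 CPM in wild-type cells with Dex and LPS.

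**Figure D3:**
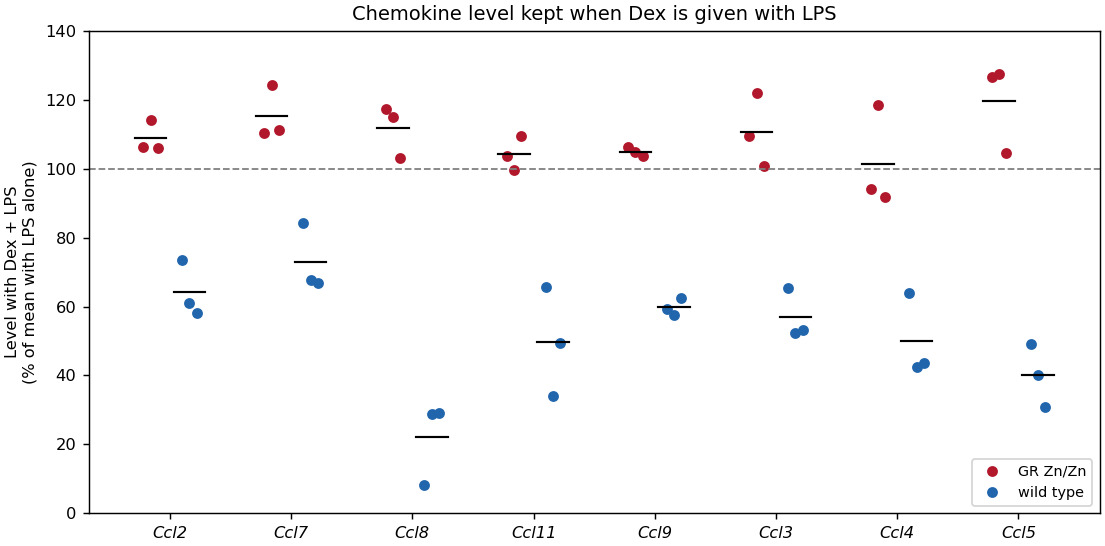
Level of each chemokine with Dex and LPS as a percent of its group's mean with LPS alone (dashed line, 100%), for GR Zn/Zn (red) and wild-type (blue) cells; points are the 3 libraries and black lines their mean. The red means lie between 102 and 120%, and every blue point is under 100%.

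The test of the difference itself was called for all 8 genes, where 5.36% of all tested genes were called in that direction. The mutant's Dex effect under LPS minus the wild type's had a median log2 value of 0.99 over the 8 and -0.01 over all tested genes. It was 1.60 ± 0.18 for Ccl5 (edgeR adjusted p = 1e-06), 1.98 ± 0.57 for Ccl8 (edgeR adjusted p = 0.0106) and between 0.66 and 1.03 for the other 6. The counts of 0 in the mutant, 8 in wild type and 8 for the difference were the same when any single library, the 3 of the later number series or the 5 that stood apart were left out. The authors' deposited tables list 7 of the 8 genes, without Ccl8, and give log2 fold changes for Dex under LPS in wild type of -1.34 for Ccl5, -1.02 for Ccl4, -1.0 for Ccl11, -0.82 for Ccl3, -0.74 for Ccl9, -0.64 for Ccl2 and -0.46 for Ccl7.

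Without LPS, edgeR called 0 of the 8 genes with Dex in mutant cells, where 0% of all tested genes were called (1109 genes and 0 of the 8 had an unadjusted p below 0.05, and DESeq2 called 3 genes and 0 of the 8). In wild-type cells Dex lowered 3 of the 8, where 5.24% of all tested genes were called lower. These comparisons use other libraries than those of Dex under LPS, and they share the vehicle libraries with LPS against vehicle. Ccl2 had 69.5, 71.3 and 66.6 CPM with Dex in mutant cells, overlapping its vehicle libraries, and 28.6, 22.2 and 25.8 CPM with Dex in wild-type cells, all below its vehicle libraries, as were 19.3% of all tested genes. Its log2 fold change was -0.02 ± 0.08 in mutant (edgeR adjusted p = 0.959) and -0.44 ± 0.09 in wild type (edgeR adjusted p = 0.00103).

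Ccl4 showed the largest fall with Dex alone. It had 1.18, 0.969 and 0.986 CPM with Dex in mutant cells, overlapping its vehicle libraries, and 0.121, 0.0826 and 0.154 CPM with Dex in wild-type cells, from 3, 2 and 3 reads against 15, 10 and 12 reads with vehicle. The log2 fold change was 0.03 ± 0.25 in mutant (edgeR adjusted p = 0.976) and -1.68 ± 0.51 in wild type (edgeR adjusted p = 0.00416). Pooled over the group, the wild-type level with Dex was 0.215 of that with vehicle, with an exact 95% counting interval of 0.0864 to 0.469. The neighbouring gene Ccl3, at 0.603, 0.330 and 0.461 CPM with Dex in wild-type cells, overlapped its vehicle libraries and was not called (log2 0.11 ± 0.37, edgeR adjusted p = 0.903).

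Ccl7 had 64.0, 60.4 and 62.1 CPM with Dex in mutant cells and 23.9, 24.1 and 25.1 CPM with Dex in wild-type cells, where it was below all vehicle libraries (log2 -0.28 ± 0.08, edgeR adjusted p = 0.0290). This call was lost without wild type with vehicle replicate 1 (edgeR adjusted p = 0.0693) or 3 (0.120) and without wild type with Dex replicate 1 (0.0888) or 2 (0.0929). Ccl5 went the other way in wild-type cells without passing the test, with 4, 6 and 7 reads with Dex and 2, 3 and 2 reads with vehicle (log2 0.85 ± 0.76, edgeR adjusted p = 0.353). Ccl9, Ccl11 and Ccl8 were not called, with log2 values of 0.10 ± 0.10, -0.83 ± 0.68 and -0.63 ± 1.21 in wild type, the last pair from 5 and 2 reads with Dex. At this depth a change of Ccl5, Ccl11 or Ccl8 with Dex in wild type could not be told from counting error.

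The genotype difference of the Dex effect without LPS was called for Ccl2 (0.42 ± 0.12, edgeR adjusted p = 0.0334) and Ccl4 (1.71 ± 0.58, edgeR adjusted p = 0.0166), 2 of 8 where 2.60% of all tested genes were called higher. The call for Ccl4 was lost without wild type with vehicle replicate 1 (edgeR adjusted p = 0.0591) or wild type with Dex replicate 2 (0.0700). That for Ccl2 was lost without wild type with vehicle replicate 2 (0.0786) or 3 (0.0789), wild type with Dex replicate 2 (0.128) or 3 (0.0556), mutant with vehicle replicate 1 (0.0791) and mutant with Dex replicate 1 (0.0593) or 2 (0.0722). With single libraries removed, 0 to 2 of the 8 genes were called, and 0 without wild type with Dex replicate 2. Ccl7 (0.30 ± 0.11, edgeR adjusted p = 0.145) was called with only the groups compared in the fit (0.00945) and without the 5 libraries that stood apart (0.000495).

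Between genotypes, mutant cells had more RNA of most of the 8 chemokines. With vehicle, 6 of 8 were higher in mutant than in wild-type cells, where 8.69% of all tested genes were called higher. With Dex 5 of 8 were higher (11.3% of all tested genes), with LPS 7 of 8 (12.6%) and with Dex and LPS 8 of 8 (15.0%). The median log2 difference of the 8 was 0.95 with vehicle, 1.22 with Dex, 0.74 with LPS and 2.10 with Dex and LPS, against -0.01 to 0.01 over all tested genes.

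Ccl11 had the largest fitted difference between genotypes in 3 of the 4 treatments. Its log2 difference was 1.71 ± 0.37 with vehicle, 2.20 ± 0.51 with Dex, 2.60 ± 0.16 with LPS and 3.62 ± 0.17 with Dex and LPS, the last a 12.3-fold difference. With Dex alone Ccl4 had the larger value, 2.53 ± 0.44. The wild-type level of Ccl11 rests on 13 reads with vehicle and 5 with Dex, and that of Ccl4 with Dex on 8. The order of the genes without LPS is therefore uncertain. Every mutant library was above every wild-type library for Ccl11 under each treatment, as was so for 17.0% of all tested genes with vehicle, 22.9% with Dex, 24.8% with LPS and 15.6% with Dex and LPS.

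The log2 difference of Ccl2 was 1.01 ± 0.08 with vehicle, 1.44 ± 0.09 with Dex, 0.40 ± 0.08 with LPS and 1.16 ± 0.08 with Dex and LPS. Ccl7 ran close to it, at 1.05 ± 0.08 with vehicle, 1.35 ± 0.08 with Dex, 0.44 ± 0.07 with LPS and 1.10 ± 0.07 with Dex and LPS. For these genes the genotype gap was smallest with LPS alone.

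Ccl3 differed by 1.37 ± 0.28 with vehicle, 1.10 ± 0.30 with Dex, 1.05 ± 0.09 with LPS and 2.02 ± 0.10 with Dex and LPS on the log2 scale. Ccl4 differed by 0.82 ± 0.29 with vehicle, 1.14 ± 0.11 with LPS and 2.18 ± 0.12 with Dex and LPS. The vehicle call for Ccl4 (edgeR adjusted p = 0.0321) was lost without mutant with vehicle replicate 1 (0.174) and without wild type with vehicle replicate 2 (0.140) or 3 (0.107), and also without the later number series (0.194) and without the 5 libraries that stood apart (0.0501).

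Ccl9 differed by 0.32 ± 0.10 with vehicle (edgeR adjusted p = 0.0229), 0.60 ± 0.08 with LPS and 1.40 ± 0.08 with Dex and LPS, and with Dex alone its 0.13 ± 0.10 was not called. The vehicle call for Ccl9 was lost without mutant with vehicle replicate 3 (0.103) and without wild type with vehicle replicate 1 (0.0655) or 3 (0.0625), and without mutant with Dex replicate 3 the value with Dex was called (0.26, edgeR adjusted p = 0.0490). Ccl5 was called with LPS (0.66 ± 0.12) and with Dex and LPS (2.25 ± 0.13), and its few reads with vehicle and with Dex did not pass. Ccl8 passed with Dex and LPS only (2.80 ± 0.43); with LPS it had 0.82 ± 0.37 (edgeR adjusted p = 0.0917), which passed with only the groups compared in the fit (0.0158) and without the 5 libraries that stood apart (0.0154).

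**Figure D4:**
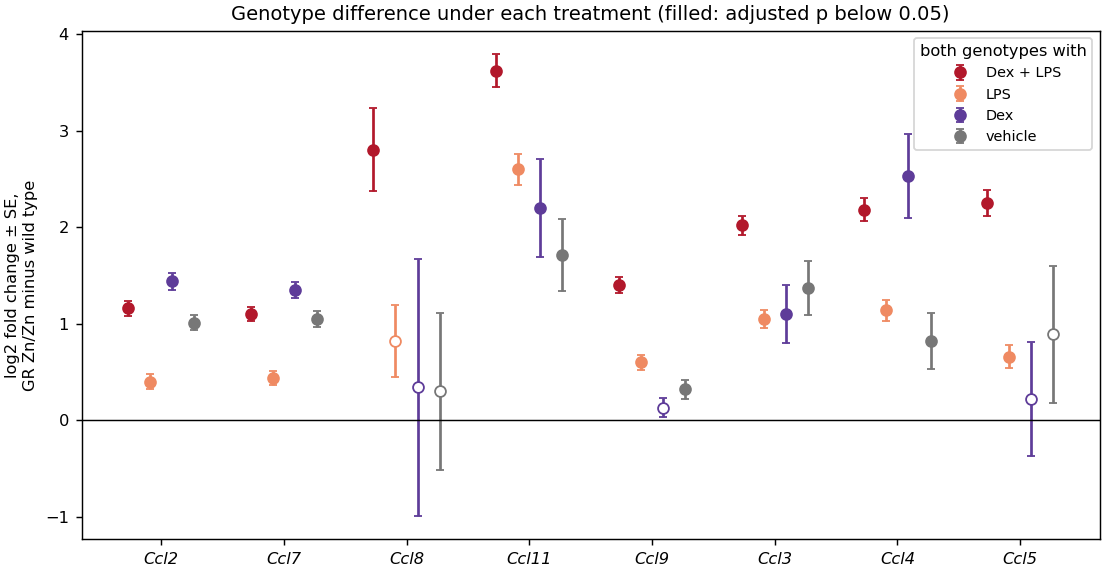
Log2 fold change of GR Zn/Zn minus wild-type cells (points) with standard errors (bars) for each chemokine with Dex and LPS, LPS, Dex or vehicle given to both genotypes, n = 3 libraries a group; filled points passed an adjusted p of 0.05. Values with Dex and LPS are the highest of the 4 for Ccl11 (3.62), Ccl8, Ccl9, Ccl3 and Ccl5, and all filled points lie above 0.

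Leukocyte RNA moved with genotype as well. The summed level of 18 leukocyte markers was 215 to 251 CPM in mutant and 87.9 to 120 CPM in wild-type libraries, with no overlap. Of the 14 markers tested, 13 were higher in mutant cells under each of the 4 treatments, with medians of 0.87 to 1.10 on the log2 scale, against -0.01 to 0.01 over all tested genes. The share of all tested genes called higher was 8.69% with vehicle, 11.3% with Dex, 12.6% with LPS and 15.0% with Dex and LPS. The higher markers include the macrophage genes Lyz2, Csf1r, Adgre1 and C1qa. Lyz2 had 97.7 CPM in mutant and 41.0 CPM in wild-type cells with Dex and LPS, while the T cell gene Cd3e was at 0 in every group. Macrophages are a known source of Ccl3, Ccl4, Ccl5 and Ccl9, and the part of these markers in the genotype differences was not tested. In bulk samples, fewer cells of a type and less RNA per cell cannot be told apart.

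Within wild type, the summed leukocyte markers were at 105 to 120 CPM with Dex and LPS, against 104 to 107 CPM with LPS alone. Of the 14 tested, 0 were called lower and 2 higher (C1qa and C1qb), where 1607 of all 15221 tested genes were called lower and 3198 in either direction. The part of these markers in the fall of the 8 chemokines was not tested. With Dex alone in wild type, the sum was 87.9 to 97.2 CPM, against 107 to 110 CPM with vehicle. Of the 14 markers, 4 were lower and 1 higher, where 5.24% of all tested genes were called lower. The part of the markers in the fall of Ccl2, Ccl7 and Ccl4 was not tested. Between genotypes, endothelial markers summed to 7.25 to 12.9 CPM in mutant and 21.2 to 36.4 CPM in wild-type libraries, and epithelial markers to 3.10 to 4.85 CPM in mutant and 5.45 to 12.2 CPM in wild-type libraries.

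Single fibroblast markers moved with genotype too. Of the 10, 6 were higher in mutant cells with vehicle, 8 with Dex, 8 with LPS and 7 with Dex and LPS, with Fn1 lower each time and medians of 0.51 to 0.79 on the log2 scale. The shares of all tested genes called higher were 8.69%, 11.3%, 12.6% and 15.0% in the same order. The summed level of the 10 overlapped between genotypes with vehicle, at 25719 to 31873 CPM in mutant and 30067 to 32328 CPM in wild-type libraries. It also overlapped with LPS and with Dex and LPS. With Dex the sum was 32144 to 34974 CPM in mutant and 30077 to 31727 CPM in wild-type libraries. Pdgfra, a growth factor receptor of mesenchymal cells, was at 157 ± 6.44 CPM in mutant and 34.1 ± 0.542 CPM in wild-type cells with vehicle, and Thy1, a surface protein of fibroblasts, at 718 ± 80.0 CPM in mutant and 317 ± 3.74 CPM in wild-type cells (SD, n = 3 each). With Dex under LPS in wild type, Lum (-0.97 ± 0.19), Fn1 (-0.39 ± 0.12), Pdgfrb (-0.38 ± 0.05) and Dcn (-0.31 ± 0.09) were lower and Pdgfra higher (0.33 ± 0.10), and 0 of 10 were called in the mutant. Of all tested genes, 10.6% were called lower in wild type and 0.00657% in either direction in the mutant. The part of the fibroblast markers in the differences of the chemokines was not tested.

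**Figure D5:**
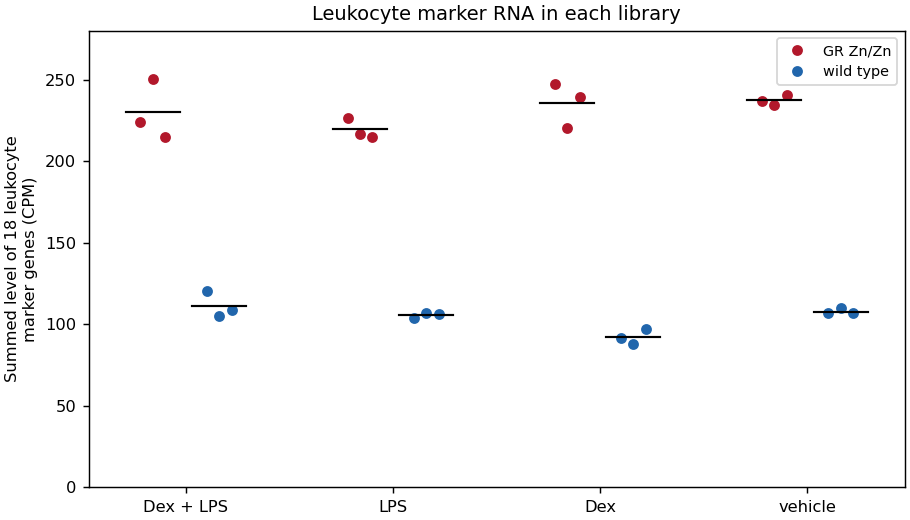
Summed level of 18 leukocyte marker genes in each library (points) with group means (black lines), in CPM, for GR Zn/Zn (red) and wild-type (blue) cells under 4 treatments. All 12 red points, at 215 to 251 CPM, lie above all 12 blue points, at 87.9 to 120 CPM.

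Of 13 other CC chemokine genes, 9 passed the filter on low counts. Ccl1, Ccl12 and Ccl22 had few or no reads without LPS and passed through groups with LPS. A rise of these genes with LPS was therefore in part set in advance by the filter. Ccl6 was low in every group and highest in mutant cells with LPS, with 65 reads over 3 libraries. Its place among the tested genes may rest on that group. In wild-type cells Ccl6 had 20 reads with LPS and 8 with Dex and LPS. With LPS 6 of the 9 were higher in mutant and 5 in wild-type cells, where 19.0% and 14.0% of all tested genes were. Ccl20, which attracts Ccr6-bearing lymphocytes and dendritic cells, was the most abundant of them as reads, with 162 ± 3.41 CPM with LPS and 1.86 ± 0.325 CPM with vehicle in mutant cells, and 219 ± 8.31 CPM with LPS and 1.49 ± 0.470 CPM with vehicle in wild-type cells. With Dex under LPS, 0 of 9 were called in the mutant and 5 of 9 were lower in wild type: Ccl22 (-1.72 ± 0.38), Ccl1 (-1.48 ± 0.35), Ccl12 (-1.46 ± 0.28), Ccl6 (-1.28 ± 0.55) and Ccl20 (-0.61 ± 0.10). Of all tested genes, 0.00657% were called in either direction in the mutant and 10.6% lower in wild type. The genotype difference of the Dex effect under LPS was called for Ccl1, Ccl22, Ccl12 and Ccl20, where 5.36% of all tested genes were called higher.

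The direction between genotypes was mixed among these other ligands. With LPS, Ccl12 (1.31 ± 0.24) and Ccl6 (1.10 ± 0.39) were higher in mutant cells and Ccl1 (-1.30 ± 0.34), Ccl17 (-1.05 ± 0.24), Ccl28 (-0.89 ± 0.28) and Ccl20 (-0.43 ± 0.10) lower. The value for Ccl6 rests on few reads, 65 in mutant and 20 in wild-type cells with LPS. Of all 15221 tested genes, 1918 were called higher and 3731 in either direction. Ccl1, a Ccr8 ligand, was at 0 reads in wild-type cells with vehicle and with Dex. Of the stretches of 50 bases in their exons, 52.0% in Ccl19, 71.6% in Ccl21a and 45.0% in Ccl27a also occur in another gene, so the values of these 3 are uncertain.

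Receptors for CC chemokines were scarce. Of 15 receptor genes 4 passed the filter, and Ccrl2 and Ackr4 among them are described here. Ccr2, the receptor of Ccl2 and Ccl7, had 1 read over all 24 libraries. Ccrl2, an atypical receptor that does not signal as the classic ones do, rose with LPS to 11.7 ± 0.660 CPM in mutant and 5.20 ± 0.380 CPM in wild-type cells, and with Dex and LPS it stood at 14.3 ± 1.72 CPM in mutant and 1.55 ± 0.285 CPM in wild-type cells. With vehicle it had 5 reads over 3 mutant and 7 over 3 wild-type libraries, and it passed the filter through groups with LPS. For Ccrl2 a rise with LPS was therefore in part set in advance. Its Dex effect under LPS was 0.30 ± 0.13 in mutant (edgeR adjusted p = 0.838) and -1.66 ± 0.16 in wild type (edgeR adjusted p = 3.96e-08). Ackr4, a scavenging receptor for other CC ligands, went the other way in wild type, at 0.81 ± 0.23 (edgeR adjusted p = 0.0107), and was lower in mutant than in wild-type cells with vehicle (log2 -2.33 ± 0.25).

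Among 29 genes of LPS sensing and NF-kB or interferon regulatory signalling, 28 were tested. With LPS, 18 were higher and 1 lower in mutant cells, and 17 higher and 1 lower in wild-type cells. Fos was the lower one in both. Of all tested genes, 19.0% were called higher in mutant and 14.0% in wild-type cells. Tlr4, the LPS receptor, was called in none of the 13 comparisons. With Dex under LPS, 1607 of 15221 tested genes were called lower in wild type and 3198 in either direction, against 1 in the mutant. Of the 28, 0 were called in the mutant, and 11 were lower and 2 higher in wild type. The lower ones included the interferon pathway factors Irf7 (-1.93 ± 0.17) and Irf1 (-0.72 ± 0.06) and the NF-kB subunits Nfkb1 (-0.45 ± 0.04), Rel (-0.45 ± 0.14) and Nfkb2 (-0.27 ± 0.07). Lbp (0.83 ± 0.18) and Fos (0.64 ± 0.10) were the higher ones.

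Of 12 feedback and mRNA decay genes, all tested, 0 were called with Dex under LPS in the mutant and 4 were higher and 4 lower in wild type. The higher ones were Tsc22d3 (2.26 ± 0.07), an inhibitor of NF-kB and AP-1 that GR induces, Dusp1 (0.62 ± 0.07), a MAP kinase phosphatase, and the mRNA decay factors Zfp36 (0.28 ± 0.06) and Zfp36l2 (0.15 ± 0.05). The lower ones were Tnfaip3 (-0.46 ± 0.07), Nfkbiz (-0.36 ± 0.08), Nfkbie (-0.31 ± 0.09) and Elavl1 (-0.25 ± 0.04). In this list, too, LPS alone raised 10 genes and lowered 1 in each genotype. Of all tested genes, 19.0% were called higher with LPS in mutant and 14.0% in wild-type cells. With Dex under LPS in wild type, 1607 of 15221 tested genes were called lower and 3198 in either direction.

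Across the 24 libraries the log levels of the 8 chemokines ran together, with Pearson's r between 0.884 (Ccl2 and Ccl8) and 0.997 (Ccl2 and Ccl7); this describes points that share libraries and the large LPS step. The genes whose pattern was most like each member were Micall2 (r = 0.995), Tlr2 (0.994) and Cxcl1 (0.993) for Ccl2, and Tlr2 (0.992), Nlrp3 (0.992) and Bcl3 (0.991) for Ccl7. For Ccl9 they were Nfkb1 (0.996), Cxcl10 (0.996) and Il1b (0.994), for Ccl3 Csf1 (0.996), Rsad2 (0.993) and Tlr2 (0.993), for Ccl4 Nlrp3 (0.993), Ch25h (0.991) and Cxcl16 (0.990), and for Ccl5 Slc11a2 (0.992), Gbp2 (0.991) and Gbp3 (0.990). Ccl8 was closest to Trim21 (0.972), Gm4951 (0.970) and Iigp1 (0.966), and Ccl11 to H2-K1 (0.983), Ifi211 (0.980) and Il15ra (0.980).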

How the data were processed

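RNA of 24 libraries, 3 in each of 8 groups by genotype and treatment in the labels, was measured as reads per gene. The deposited counts follow the column layout STAR writes; mm10, STAR (2.4.2 and 2.4.2a), DESeq, DESeq2 and FastQC are listed in the submitters' processing notes. Per the labels' protocols the kit was stranded and 500 ng of RNA went in, so counts of the reverse strand were used. Entries naming no gene stayed out of library sizes: reads in no feature (3.10 to 4.72%), at several places (3.74 to 5.79%), unmapped (2.92 to 5.58%) or ambiguous (1.18 to 1.41%). The authors' deposited tables give log2 fold changes and adjusted p-values for 12588 genes in 4 comparisons, and another 96 columns of normalized values per sample were not used.

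edgeR 4.0.16 in R 4.3.3 fitted all 24 libraries together by quasi-likelihood with robust estimation, TMM scaling, its default filter on low counts and a prior count of 2. There were 13 comparisons, each adjusted by Benjamini-Hochberg over the 15221 genes tested and called below 0.05. Adjusted p-values are those of this edgeR fit unless DESeq2 or the authors are named. CPM are per 1e06 counted reads, as mean ± SD, and fold changes carry the SE. Counting intervals are exact at 95% and, without molecular identifiers, leave out every error but that of counting. Named genes are the 8 members, called members of the lists and the 3 genes most like each member by Pearson's r. Members and lists were chosen with earlier results of these data known. Alternatives were DESeq2 1.42.0, other size factors, no filter, unstranded counts, a replicate block, a batch term and left-out libraries. The code was tested on simulated data. Some genes of the lists are not reported here by name. In no comparison did every same-numbered pair of libraries correlate above 0.1, so the numbers were not taken to pair samples.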

Additional observations from a re-analysis of the deposited data

Results flagged for a closer look

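The effect of a treatment differed between genotypes in a test of the difference itself for the following genes, given as the mutant's log2 fold change minus the wild type's. For Dex under LPS it was 0.76 for Ccl2, 0.66 for Ccl7, 1.98 for Ccl8, 0.81 for Ccl9, 1.02 for Ccl11, 0.96 for Ccl3, 1.03 for Ccl4 and 1.60 for Ccl5, where the mutant had between 0.02 and 0.26 and wild type between -1.81 and -0.46. For Dex without LPS it was 0.42 for Ccl2 and 1.71 for Ccl4. For LPS it was -0.61 for Ccl2 and -0.61 for Ccl7.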

How the results depend on the processing

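Across DESeq2, size factors by RLE in place of TMM, no filter on low counts, unstranded counts, only the groups compared in the fit, a batch term for the number series and the libraries left out in sets of 3 and 5, the number of the 8 genes called stayed within 1.5 times in all 13 comparisons, and no called value changed sign. With the replicate number as a block, the 13 counts were the same as without it (0 for Dex under LPS in the mutant, 8 in wild type), though the numbers do not pair the samples. Leaving out single libraries gave 0 to 2 genes for the genotype difference of the Dex effect. It gave 2 to 3 for Dex in wild type, 4 to 6 for mutant against wild type with vehicle and 5 to 6 with Dex. In either direction, 3198 of the 15221 tested genes were called with Dex under LPS in wild type in the main fit. This share in either direction ran between 9.88% with no filter and 33.0% without the later number series. A left-out library that leaves a lone pair is assumed to vary like the other groups. Depth limits Ccl8, Ccl11, Ccl5, Ccl4 and Ccl3 without LPS, where groups hold 2 to 125 reads. The cause of these changes was not tested.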
